A study of Homo sapiens and Mus musculus with 29 samples.

Results

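The LCN2 mucosal defense genes are 10 genes of secreted or surface proteins with which epithelia hold microbes and proteases in check. They were chosen by gene symbol, and LCN2 itself was picked for its lower level in metastases than in primary tumors of these same libraries. All 10 were found among the 58719 genes of the HPAF-II expression table. The values that chose LCN2 are therefore given below as a description, with no test, and the other genes are counted apart from it in the comparisons with metastases.

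HPAF-II is a human pancreatic adenocarcinoma cell line, here injected into the pancreas of immunodeficient NSG mice, and RNA was sequenced from 15 primary tumors and 6 metastases of 15 mice. There were 3 control tumors (Cas9 with empty vector), 3 FOXA1-OE tumors (lentiviral FOXA1 overexpression), 4 HNF4G-KO tumors (CRISPR knockout of the nuclear receptor HNF4G) and 5 HNF4G-KO + FOXA1-OE tumors from 4 mice. Metastases came from these last 2 genotypes only, as 2 HNF4G-KO peritoneal metastases and 4 HNF4G-KO + FOXA1-OE metastases of 3 mice (1 spleen, 2 peritoneal in fat, 1 peritoneal). The knockout cells were pooled CRISPR clones, every group carried human tumor cells in a host without adaptive immunity or NK cells, and tumors were taken at a humane endpoint, so tumor age was not matched.

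The genes fall into a few roles. LCN2 (lipocalin 2) is a secreted protein that binds iron-carrying bacterial siderophores, and LTF (lactoferrin) binds iron itself. SLPI, PI3 (elafin) and WFDC2 (HE4) are small whey-acidic-protein domain proteins, and SLPI and PI3 inhibit neutrophil elastase. LYZ (lysozyme) cleaves bacterial cell walls, DEFB1 is a beta-defensin, and BPIFB1 belongs to the bactericidal/permeability-increasing fold family of airway secretions. DMBT1 is a large mucosal scavenger receptor cysteine-rich protein that agglutinates bacteria, and PIGR carries dimeric IgA and pentameric IgM across the epithelium. LCN2 transcription is classically driven by NF-kappaB with C/EBP factors downstream of interleukin-17 and interleukin-1 signaling.

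In GRCh38 (GENCODE release 44) LCN2 lies at chr9:128149071-128153453 on the plus strand, PIGR at chr1:206928522-206946466 on the minus strand and DMBT1 at chr10:122560665-122643736 on the plus strand. SLPI, PI3 and WFDC2 lie near each other on chromosome 20, between position 45174902 (start of PI3) and 45481532 (end of WFDC2). The promoters of the 3 genes whose levels the results below turn on are shown from RefSeq (GRCh38.p14), 250 bases before to 50 after the start used by the RefSeq entry, 5′ to 3′ on the gene's strand. For LCN2 and DMBT1 that start lies inside the GENCODE bounds above and not at their edge. Distances below are counted from the RefSeq start. RefSeq entries were matched for 6 of the 10 genes (LCN2, WFDC2, BPIFB1, LTF, DMBT1 and PIGR). SLPI, PI3, LYZ and DEFB1 had no entry. Capitals mark matches on either strand to 4 sequence motifs, GGGA and CC with any 4 bases between them for NF-kappaB, TTGCNNAA for C/EBP, TGTTTAC for FOXA and CAAAGTCCA for HNF4.
LCN2, chr9:128149203-128149502, plus strand: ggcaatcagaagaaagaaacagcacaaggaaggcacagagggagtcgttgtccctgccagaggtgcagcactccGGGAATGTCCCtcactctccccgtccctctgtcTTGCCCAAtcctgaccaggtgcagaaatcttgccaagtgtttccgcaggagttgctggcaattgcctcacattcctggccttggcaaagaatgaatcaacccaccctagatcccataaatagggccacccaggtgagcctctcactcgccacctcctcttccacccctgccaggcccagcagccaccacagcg
DMBT1, chr10:122560504-122560803, plus strand: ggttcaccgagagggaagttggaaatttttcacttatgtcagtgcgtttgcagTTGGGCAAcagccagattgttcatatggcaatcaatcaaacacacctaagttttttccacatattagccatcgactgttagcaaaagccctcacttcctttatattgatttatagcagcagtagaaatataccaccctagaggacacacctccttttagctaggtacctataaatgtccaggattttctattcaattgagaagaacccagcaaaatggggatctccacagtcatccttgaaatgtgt
PIGR, chr1:206946417-206946716, minus strand: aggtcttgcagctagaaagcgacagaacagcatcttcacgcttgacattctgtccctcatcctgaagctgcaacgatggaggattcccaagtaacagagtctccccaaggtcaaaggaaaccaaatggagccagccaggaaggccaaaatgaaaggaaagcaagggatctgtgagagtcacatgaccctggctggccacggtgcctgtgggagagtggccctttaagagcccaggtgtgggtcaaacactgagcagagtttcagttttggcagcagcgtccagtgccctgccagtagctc
The LCN2 window held an NF-kappaB match, GGGAATGTCC, 176 bases before the start, which overlapped a match on the opposite strand by all but 1 base, and a C/EBP match, TTGCCCAA, 143 bases before the start. The DMBT1 window held a C/EBP match, TTGGGCAA on the opposite strand, 197 bases before the start, and the PIGR window held none of the 4 motifs. Over all 35116 promoter windows of this length, 25.6% held the NF-kappaB letters, 10.5% the C/EBP letters, 3.42% the FOXA letters and 0.384% the HNF4 letters. These are matches of letters only, and no binding was measured here.

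The 21 libraries had 33.1 to 69.6 M reads, worked out from the steps between low values, and epithelial markers were high in all (summed EPCAM, KRT8, KRT18, KRT19, CDH1, CLDN4 and ELF3 at 2774 to 5280 RPKM). RPKM is reads per kilobase of gene, scaled to the depth of the library. HNF4G RNA was at 2.48 to 3.47 RPKM in control tumors and at 5.72 to 8.42 RPKM in HNF4G-KO tumors. CRISPR edits that shift the reading frame need not remove the transcript, so the RNA level does not check the knockout. FOXA1 was at 0.519 to 1.87 RPKM in the control and HNF4G-KO tumors and at 4.65 to 23.1 RPKM in 7 of the 8 FOXA1-OE tumors. In the library labeled FOXA1-OE tumor 3 it was at 0.763 RPKM, and in the libraries labeled HNF4G-KO + FOXA1-OE metastases 1, 3 and 4 at 0.535, 1.30 and 1.55 RPKM, against 17.9 RPKM in metastasis 2. FOXA1-OE tumor 3 and HNF4G-KO + FOXA1-OE tumor 5 correlated least with the other primary tumors (median Pearson r across genes 0.855 and 0.883, against 0.911 to 0.951). Values without both are given beside most of the calls and near-calls they enter.

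Expression of the 10 genes spanned the whole range of the table. LYZ and SLPI were among the most abundant transcripts of these tumors, at means of 545 RPKM (rank 48 of all genes) and 322 RPKM (rank 90) over the 21 libraries. LCN2 followed at 82.6 RPKM, then WFDC2 at 14.2, DEFB1 at 11.2 and PI3 at 1.98 RPKM. BPIFB1 (0.760), PIGR (0.749) and DMBT1 (0.255 RPKM) were low but had at least 3 reads in every library. LTF was listed at 0 in 15 of 21 libraries and had at most 10 reads in any other, so it is left out of the counts below. The 6 genes from LYZ to PI3 passed the filter of a mean of at least 1 RPKM in both the primary tumor fit and the metastasis fit, and the other 4 did not. SLPI varied least among the abundant genes (189 to 716 RPKM, a 3.79-fold range), and LCN2 and DEFB1 most (28.2-fold and 30.2-fold).

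LCN2 was highest in control and FOXA1-OE tumors, intermediate in HNF4G-KO + FOXA1-OE tumors, lower in HNF4G-KO tumors and lowest in metastases. Control tumors 1 to 3 had 94.1, 121 and 251 RPKM, and FOXA1-OE tumors 1 to 3 had 138, 72.4 and 190 RPKM. The 4 HNF4G-KO tumors lay close together at 56.8, 61.2, 76.5 and 66.4 RPKM. The 5 HNF4G-KO + FOXA1-OE tumors had 161, 53.2, 52.5, 89.0 and 120 RPKM, where the 2 lowest came from 1 mouse. The HNF4G-KO metastases had 32.2 and 12.1 RPKM, and the 4 HNF4G-KO + FOXA1-OE metastases had 19.1, 22.9, 35.4 and 8.92 RPKM. Every metastasis was thus below every primary tumor of any group, whose lowest value was 52.5 RPKM.

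**Figure D1:**
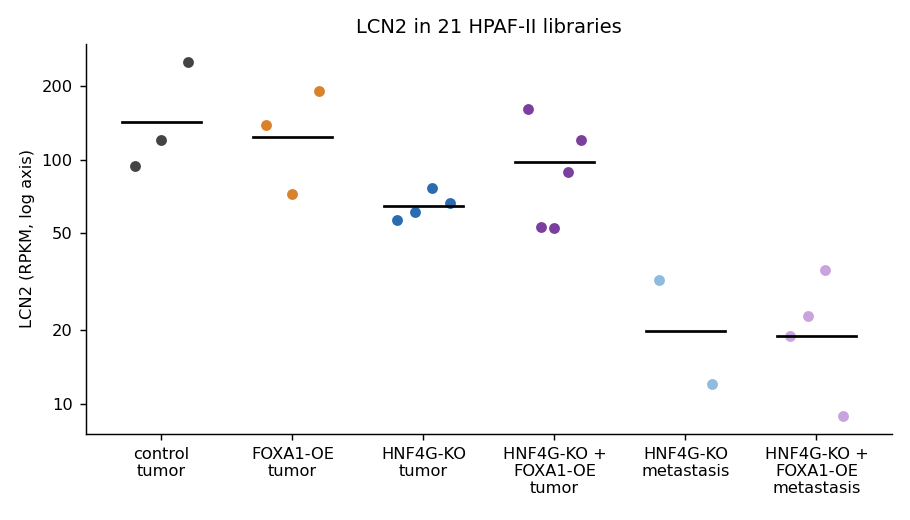
LCN2 expression (RPKM, log axis) in each of the 21 HPAF-II libraries by group, with each point a library and each bar the mean of log2(RPKM + 1) over mice, converted back to RPKM. The 6 metastases sit between 8.92 and 35.4 RPKM, under all 15 primary tumors (52.5 to 251 RPKM).

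Knockout of HNF4G was compared with control first, in a limma fit of log2(RPKM + 1) over the 15 primary tumors with Benjamini-Hochberg adjustment over all 14269 genes tested. None of the 6 tested genes was called at an adjusted p under 0.05, where 12.2% of all genes were. An unadjusted p under 0.05 was found for 4362 of the 14269 genes and for 1 of the 6. That gene was LCN2, at 65.2 ± 8.45 RPKM (SD, n = 4 mice) in HNF4G-KO against 155 ± 84.2 RPKM (SD, n = 3) in control tumors, a log2 fold change of -1.12 (SE 0.41, limma adjusted p = 0.0847). The 2 groups did not overlap, and the two-sided exact permutation test gave p = 0.0571, the smallest that 4 against 3 mice allows. The call was made in a fit of the 2 groups alone (adjusted p = 0.0157), without the 2 tumors that stand apart (adjusted p = 0.0468), and with host stroma as a covariate (log2 fold change -1.90, adjusted p = 0.00441). Summed host stroma markers of the 2 groups did not overlap (106 to 240 RPKM in control, 68.8 to 94.1 RPKM in HNF4G-KO tumors). In the covariate fit genotype and stroma therefore cannot be told apart. Over all settings, genes called in this comparison ranged from 284 to 5595, against 1736 in the main fit. A call gained with a setting need not be particular to the gene. Without control tumor 3, the highest of its group, the LCN2 log2 fold change was -0.71 (limma adjusted p = 0.349), and no fit that left out 1 mouse of these groups made the call. The HNF4G-KO tumors also enter the contrast by which LCN2 was picked.

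Of the antiprotease genes, WFDC2 had 11.8, 14.6 and 28.3 RPKM in control tumors and 10.3, 8.90, 9.80 and 9.07 RPKM in HNF4G-KO tumors. The groups did not overlap, and the log2 fold change of -0.78 (SE 0.53, limma adjusted p = 0.339) passed only in the fit of the 2 groups alone (adjusted p = 0.0313) and with the host stroma covariate (log2 fold change -1.78, adjusted p = 0.0168). In the covariate fit genotype and stroma cannot be told apart here either. Without control tumor 3 the WFDC2 log2 fold change was -0.43 (limma adjusted p = 0.719). PI3 had a log2 fold change of -0.61 (adjusted p = 0.318), and SLPI of -0.07 with a 95% interval of -0.89 to 0.74. LYZ had a log2 fold change of 0.10 with an interval from -1.37 to 1.57, and DEFB1 one of -0.60 (adjusted p = 0.365). The median of the 6 was -0.61, beside 0.01 over all genes tested.

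The clearest differences between HNF4G-KO and control tumors were in PIGR and DMBT1, which lay under the filter of 1 RPKM. PIGR was at 1.05, 0.930 and 2.43 RPKM in control tumors (262, 143 and 524 reads) and at 0.277, 0.264, 0.231 and 0.285 RPKM in HNF4G-KO tumors (64, 68, 62 and 80 reads). DMBT1 was at 1.26, 1.13 and 0.578 RPKM in control tumors (579, 321 and 230 reads) and at 0.366, 0.173, 0.0445 and 0.143 RPKM in HNF4G-KO tumors (156, 82, 22 and 74 reads). Neither gene overlapped between the groups, and the means differed 5.56-fold for PIGR and 5.46-fold for DMBT1. Both fell in HNF4G-KO tumors in 2 fits chosen to reach genes this low. With no filter on RPKM (44505 genes, 2.69% called), the log2(RPKM + 1) fold changes were -0.92 for PIGR (SE 0.20, limma adjusted p = 0.0377) and -0.74 for DMBT1 (SE 0.13, limma adjusted p = 0.0141), on a scale that understates changes of low genes. On recovered reads with a mean of at least 10 (limma-voom, 22103 genes, 9.08% called), PIGR fell by 2.35 on the log2 scale (SE 0.43, adjusted p = 0.00525) and DMBT1 by 2.74 (SE 0.52, adjusted p = 0.00654). Both calls were made in all 8 repeats on reads that left out 1 control or HNF4G-KO mouse or the 2 tumors that stand apart (adjusted p from 0.00217 to 0.0304 for PIGR and from 0.00267 to 0.0343 for DMBT1). Without the 2 tumors that stand apart, 5412 of 21880 genes were called on reads. BPIFB1, the other gene reached on reads, had a log2 fold change of -0.35 (adjusted p = 0.774).

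Of the 9 genes other than LTF, 8 were lower in HNF4G-KO than in control tumors and 4 of these did not overlap (LCN2, WFDC2, DMBT1 and PIGR), beside 46.4% of all genes tested whose groups did not overlap. That share is over genes that passed the filter of 1 RPKM, which DMBT1 and PIGR did not pass. Host tissue differed between these groups too. The summed level of 14 host stroma markers was 106 to 240 RPKM in control and 68.8 to 94.1 RPKM in HNF4G-KO tumors, led by COL1A1, with 5 of the 14 at a mean under 1 RPKM in control tumors. The 10 pancreatic enzyme markers summed to 782 RPKM in control tumor 2 and to 7.38 and 8.65 RPKM in control tumors 1 and 3. With the stroma covariate the log2 fold changes on reads were -2.87 for PIGR and -2.23 for DMBT1 (limma-voom adjusted p = 0.000644 and 0.0316, with 3592 of 22103 genes called). Stroma levels did not overlap between the groups, so genotype and stroma cannot be told apart in this fit. The part of host pancreas in these values was not tested. How mouse reads were treated is not given in the sources used here, and in bulk RNA fewer cells of a type and less RNA per cell cannot be told apart.

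**Figure D2:**
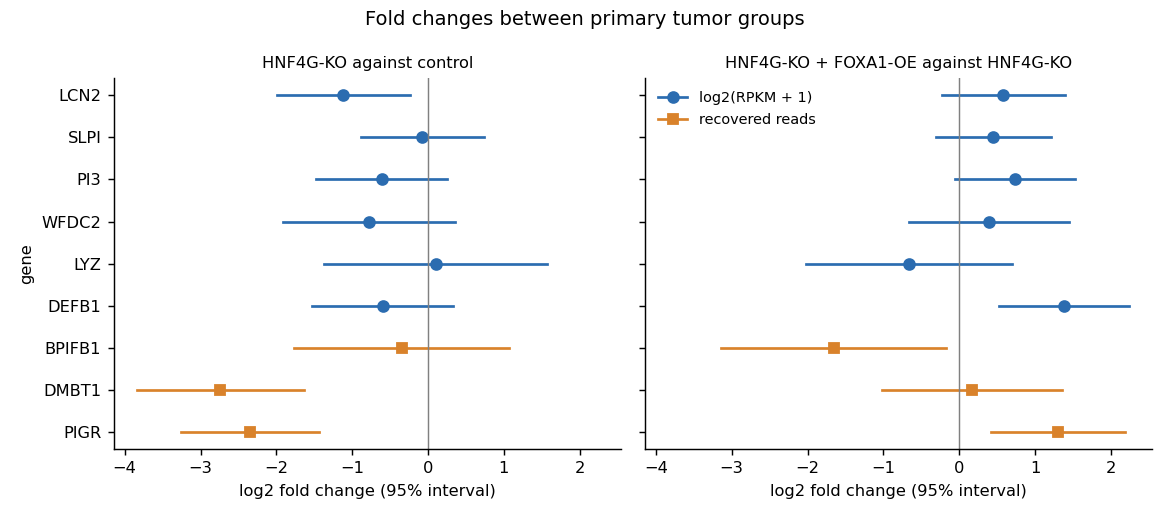
Log2 fold changes with 95% intervals for HNF4G-KO against control tumors and for HNF4G-KO + FOXA1-OE against HNF4G-KO tumors, from log2(RPKM + 1) for 6 genes (circles) and from recovered reads for 3 low genes (squares). In the first panel PIGR (-2.35) and DMBT1 (-2.74) lie farthest below 0. In the second the intervals of DEFB1 (1.39) and PIGR (1.30) lie above 0 and that of BPIFB1 (-1.65) below it, and none of these passed after adjustment in these fits.

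Overexpression of FOXA1 with HNF4G intact was compared with control next. No gene was called (0% of 14269), with 652 at an unadjusted p under 0.05, limma-voom on recovered reads called none as well, and a fit with no RPKM filter called 3. None of the 6 tested members had an unadjusted p under 0.05, and LCN2 had a log2 fold change of -0.19 with a 95% interval of -1.13 to 0.74. DMBT1 was at 0.248, 0.0726 and 0.141 RPKM in FOXA1-OE tumors (88, 30 and 45 reads). On reads its log2 fold change against control was -2.79 (SE 0.60, limma-voom adjusted p = 0.853), which did not pass over 22103 genes, nor did it without the tumors that stand apart (-2.83, adjusted p = 0.993). PIGR, at 1.81, 1.61 and 2.48 RPKM, overlapped the control tumors. In FOXA1-OE tumor 3, whose FOXA1 was not raised, LYZ was at 57.4 RPKM against 574 and 588 RPKM in tumors 1 and 2, and SLPI and WFDC2 were the highest of the 3 (616 and 55.8 RPKM).

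FOXA1 was also overexpressed in HNF4G-KO cells. None of the 6 tested genes was called in HNF4G-KO + FOXA1-OE against HNF4G-KO tumors, where 0.0561% of genes were. Of the 6, only DEFB1 had an unadjusted p under 0.05, beside 2894 of all 14269 genes tested. It was at 34.0, 9.77, 8.10, 20.5 and 23.2 RPKM in HNF4G-KO + FOXA1-OE tumors and at 11.4, 5.23, 7.41 and 4.89 RPKM in HNF4G-KO tumors. The mouse means overlapped, with means of 21.7 against 7.24 RPKM and a log2 fold change of 1.39 (SE 0.40, limma adjusted p = 0.196, and 0.0487 with the stroma covariate). Without the tumors that stand apart the DEFB1 log2 fold change was 1.31 (limma adjusted p = 0.162). Over all settings, genes called in this comparison ranged from 0 to 363. The summed level of 8 adipose markers, led by CIDEC, was 24.7 to 72.6 RPKM in HNF4G-KO + FOXA1-OE and 22.6 to 38.9 RPKM in HNF4G-KO tumors, with 6 of the 8 at means under 1 RPKM, and its part in the DEFB1 values was not tested. LCN2 was 1.62-fold higher on average (log2 fold change 0.58, adjusted p = 0.354), and PI3 had a log2 fold change of 0.74 (adjusted p = 0.266). PIGR was at 0.940, 0.323, 0.428, 1.03 and 0.671 RPKM in HNF4G-KO + FOXA1-OE tumors, above all 4 HNF4G-KO tumors. It was the only 1 of these 9 genes whose groups did not overlap, as for 15.2% of all genes tested, with an adjusted p of 0.184 by limma-voom on reads (log2 fold change 1.30, SE 0.42) and of 0.179 without the tumors that stand apart. BPIFB1 had 0.138, 0.304, 0.0226, 0.630 and 0.633 RPKM, against 2.24, 1.06, 0.263 and 1.10 RPKM in HNF4G-KO tumors (limma-voom log2 fold change -1.65, adjusted p = 0.254).

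Whether the FOXA1 effect differed with and without HNF4G was tested directly. None of the 6 was called, beside 0.035% of all genes. An unadjusted p under 0.05 was found for 1209 of all 14269 genes and for 2 of the 6. These were DEFB1 (1.97, SE 0.61, limma adjusted p = 0.434) and PI3 (1.36, SE 0.57, limma adjusted p = 0.519). Without the tumors that stand apart their differences were 2.13 and 1.60 (limma adjusted p = 0.189 and 0.162). For LCN2 the difference was 0.78 with a 95% interval of -0.46 to 2.01. On reads, the difference for DMBT1 was 2.95 (SE 0.82, limma-voom adjusted p = 0.282, and 0.177 without the tumors that stand apart).

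The doubly altered tumors were set against each of the other genotypes as well, and these comparisons share tumors with those above. Against control, none of the 6 was called (4.7% of all genes were), with LCN2 at a log2 fold change of -0.53 (adjusted p = 0.518) and DEFB1 at 0.79 (adjusted p = 0.343). DMBT1 was at 0.115, 0.136, 0.117, 0.259 and 0.189 RPKM in the HNF4G-KO + FOXA1-OE tumors. It fell with no RPKM filter (log2 fold change -0.75, limma adjusted p = 0.0211, 1.11% of all genes called) and on reads (log2 fold change -2.57, SE 0.51, limma-voom adjusted p = 0.00925, 4.69% called), and did so on reads in all 8 repeats that left out a mouse or the 2 tumors that stand apart. Against FOXA1-OE tumors, none of the 6 was called (7.86% of all genes were), and DEFB1 came nearest (log2 fold change 1.38, SE 0.43, limma adjusted p = 0.0672, and 0.0213 without the mouse of tumors 2 and 3). PIGR fell on reads (log2 fold change -1.56, SE 0.37, limma-voom adjusted p = 0.0164, 8.28% called), and missed the threshold in 1 of 8 repeats (adjusted p = 0.0610 without the mouse of tumors 2 and 3). BPIFB1 also lay below all 3 FOXA1-OE tumors (0.911, 1.24 and 2.51 RPKM), with a log2 fold change on reads of -2.29 (SE 0.73, limma-voom adjusted p = 0.0650). It passed with the stroma covariate (adjusted p = 0.0396, with 2316 of 22103 genes called) and in 1 of 8 repeats (adjusted p = 0.0436 without tumor 5). It did not pass without the 2 tumors that stand apart (limma-voom adjusted p = 0.104), and the highest value over the 8 repeats was 0.193.

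**Figure D3:**
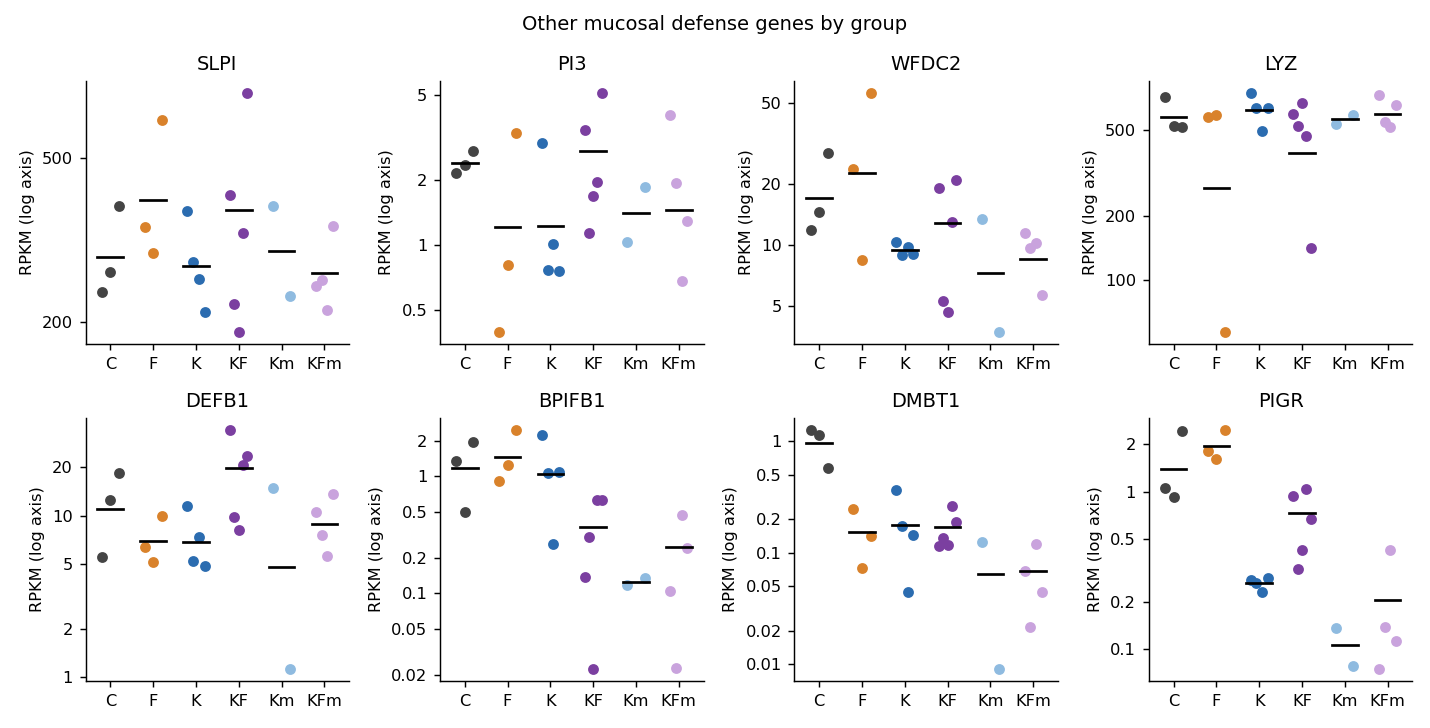
Expression (RPKM, log axes) of 8 further mucosal defense genes in each library, with C control, F FOXA1-OE, K HNF4G-KO and KF HNF4G-KO + FOXA1-OE tumors, Km and KFm metastases, points for libraries and bars for means of log2(RPKM + 1) over mice, converted back. PIGR is at 0.231 to 0.285 RPKM in all 4 HNF4G-KO tumors, and DMBT1 is highest in the 3 control tumors.

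Metastases were compared with primary tumors of the same genotype. LCN2, picked for this contrast, was 4.85-fold lower in HNF4G-KO + FOXA1-OE metastases (21.8 ± 13.3 against 106 ± 45.9 RPKM, SD, n = 3 and 4 mice, log2 difference -2.31) and 2.94-fold lower in HNF4G-KO metastases (22.2 ± 14.2 against 65.2 ± 8.45 RPKM, SD, n = 2 and 4 mice, log2 difference -1.66). In the 4 mice with both a tumor and a metastasis sequenced (with 2 metastases of 1 mouse averaged), the metastasis had between 1.90-fold and 9.97-fold less LCN2 than its own tumor. The summed host stroma level of metastases was 92.6 and 497 RPKM for HNF4G-KO and 94.9 to 253 RPKM for HNF4G-KO + FOXA1-OE, against 68.8 to 94.1 and 70.3 to 147 RPKM in the tumors. With that level as a covariate the HNF4G-KO difference was -0.84, and its part in the result was not tested. Host pancreas markers summed to at most 1.17 RPKM in any metastasis and to 0.341 to 75.2 RPKM in the tumors of these genotypes, and their part was not tested either. LCN2 was 22.9 RPKM in the metastasis that kept high FOXA1 and 8.92 to 35.4 RPKM in the 3 in which FOXA1 was low. Without the spleen metastasis the HNF4G-KO + FOXA1-OE difference in LCN2 was -2.26.

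Neutrophils also make LCN2, and their markers were read here through the human annotation, in which transcripts of mouse neutrophils need not be counted. Of 9 neutrophil markers in the table, S100A8 was at 0 in all 21 libraries, all 9 had group means under 1 RPKM, and their sum was between 0.0825 and 1.96 RPKM in any library. The sum of 10 macrophage markers was 16.6 to 22.6 RPKM in metastases and 17.4 to 25.6 RPKM in tumors of the same genotypes. It rested mostly on CTSS (group means 10.2 to 14.2 RPKM) and CD14 (4.54 to 6.38 RPKM). In these groups 6 to 8 of the 10 markers had means under 1 RPKM, and macrophage content was not tested.

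None of the other members was called in either comparison with metastases. In HNF4G-KO + FOXA1-OE mice, 0 of the 5 tested besides LCN2 were called (0.00709% of 14099 genes were) and 0 had an unadjusted p under 0.05. DEFB1 had a log2 fold change of -1.06 (SE 0.58, limma adjusted p = 0.535), with metastases at 10.6, 7.55, 5.62 and 13.6 RPKM. SLPI, PI3 and WFDC2 had log2 fold changes of -0.51, -0.60 and -0.53, and LYZ of 0.61, with adjusted p from 0.571 to 0.634. Of the 8 genes other than LCN2 and LTF, 7 had lower means in metastases (median log2 fold change over all genes tested 0.05), and none separated the groups. The groups were separated for 6.53% of the genes that passed the filter of 1 RPKM, which BPIFB1, DMBT1 and PIGR did not pass. In HNF4G-KO mice, 0 of 5 were called (0.0426% of all genes were) and log2 fold changes lay between -0.44 (DEFB1) and 0.12 (SLPI). BPIFB1 (0.118 and 0.134 RPKM) and PIGR (0.136 and 0.0782 RPKM) did not overlap the HNF4G-KO tumors, 2 of the 8 genes beside 33% of the genes that passed the filter, which neither passed. HNF4G-KO metastasis 2, the library with the most host stroma, had the lowest DEFB1 (1.13 RPKM) and WFDC2 (3.73 RPKM) of all 21. Without it the log2 fold changes in HNF4G-KO mice were 1.01 for DEFB1 and 0.46 for WFDC2 (-0.44 and -0.34 with it). With the mouse as a block, 11 and 77 genes were called in the table in place of 1 and 6, and none of these members was among them. Between the genotypes, 0% of 14099 genes and none of the 5 members differed in the metastasis effect, and 2267 genes had an unadjusted p under 0.05. Limma-voom on reads called none there either.

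Within mice, PIGR, DMBT1 and BPIFB1 were each lower in the metastasis in 4 of 4 mice (3 of the 8 genes other than LCN2 and LTF, beside 14.4% of 22197 genes with a mean of at least 10 reads), by 1.94-fold to 9.15-fold, 1.40-fold to 15.7-fold and at least 2.14-fold. On reads over all mice, PIGR had log2 fold changes of -2.11 in HNF4G-KO + FOXA1-OE and -1.28 in HNF4G-KO metastases (limma-voom adjusted p = 0.236 and 0.443), so neither passed. PIGR had 14 to 62 reads, DMBT1 3 to 60 reads and BPIFB1 5 to 51 reads in the metastases. The summed host pancreas markers were also lower in the metastases of each of these mice, at 9.46 against 0.217, 5.50 against 1.17, 17.1 against 0.340 and 0.470, and 75.2 against 0.237 RPKM (tumor against metastasis), and their part was not tested. WFDC2 and DEFB1 were lower in 3 of 4 mice, LYZ and PI3 in 2 and SLPI in 1. The ratio of tumor over metastasis for LYZ lay between 0.713 and 1.19.

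**Figure D4:**
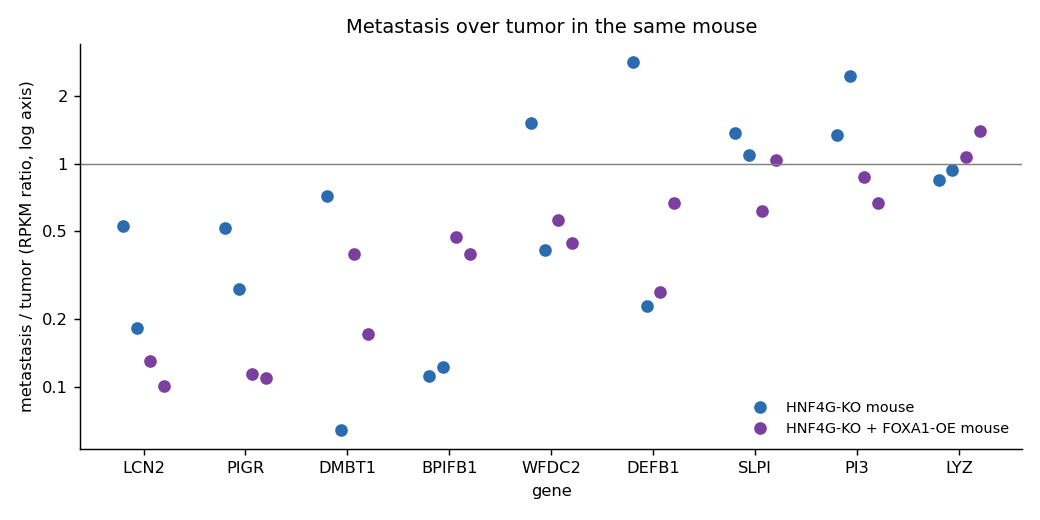
Ratio of metastasis to primary tumor RPKM (log axis) for 9 genes in the 4 mice with both, each point a mouse, with the grey line at equal levels. LCN2, PIGR, DMBT1 and BPIFB1 are below 1 in all 4 mice, and SLPI, PI3 and LYZ lie on both sides of it.

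Likeness to LCN2 was described over the 21 libraries among 14228 genes averaging 1 RPKM or more. These libraries share groups and mice, and the correlations carry no test. They include the values by which LCN2 was picked, so a gene lower in metastases ranks high for that reason too. The 5 genes most like LCN2 were CRABP2 (Pearson r 0.893), the hypoxia-induced carbonic anhydrase CA9 (0.878), SRI (0.869), GSTM3 (0.866) and SNCG (0.866). CRABP2, a retinoic acid binding protein, averaged 215 RPKM in control tumors and 39.9 RPKM in HNF4G-KO + FOXA1-OE metastases, and CA9 24.2 and 2.51 RPKM. Among the mucosal defense genes, PIGR (r 0.814) and WFDC2 (0.735) came nearest, followed by BPIFB1 (0.584), DMBT1 (0.476), SLPI (0.437), DEFB1 (0.410), PI3 (0.202) and LTF (0.0485), while LYZ ran the other way (-0.404). PIGR, BPIFB1, DMBT1 and LTF averaged under 1 RPKM and are not among the 14228 genes.

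A wider list of 57 mucosal defense genes, all found in the table, served as the surroundings of the 10. Only 18 of the 57 passed the filter in the primary tumor fit and 15 in the metastasis fit. Against control, none of the 18 was called in HNF4G-KO tumors, where 12.2% of all genes were. An unadjusted p under 0.05 was found for 5 of the 18 and for 4362 of all 14269 genes. The median log2 fold change of the 18 was -0.25, beside 0.01 over all genes. In HNF4G-KO + FOXA1-OE against control tumors, 2 rose and none fell (4.7% of all genes called). They were the trypsin inhibitor SPINK1 (22.0 ± 15.9 against 4.75 ± 1.01 RPKM, SD, n = 4 and 3, limma adjusted p = 0.0399) and the lipocalin APOD (3.58 ± 2.00 against 0.969 ± 0.108 RPKM, limma adjusted p = 0.0192). In repeats chosen after seeing the data, both calls were lost without any 1 of the 3 control tumors (limma adjusted p from 0.0649 to 0.147), and that of SPINK1 also without HNF4G-KO + FOXA1-OE tumor 1 or 5 (0.0839 and 0.0724). Without the tumors that stand apart both were made (limma adjusted p = 0.0358 and 0.0210). With the host stroma covariate SPINK1 was not called (limma adjusted p = 0.105) and APOD was (0.0488). Against FOXA1-OE tumors, 3 of the 18 rose (SPINK1, APOD and the chemokine CCL20) and 2 fell, where 7.86% of all genes were called. CCL20 averaged 13.4 against 1.96 RPKM (log2 fold change 2.04, limma adjusted p = 0.0128). The protease inhibitor SPINT2 (69.4 against 120 RPKM, log2 fold change -0.82, adjusted p = 0.0422) and the antimicrobial ribonuclease RNASE6 (1.26 against 3.02 RPKM, log2 fold change -0.81, adjusted p = 0.0213) were the 2 that fell. The 3 that rose were called in all 8 repeats that left out a mouse or the tumors that stand apart, SPINT2 in 3 of 8 and RNASE6 in 6 of 8 (limma adjusted p up to 0.154 without FOXA1-OE tumor 1 and 0.0665 without FOXA1-OE tumor 3). None was called in the other 6 comparisons, metastases included.

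Of 20 regulators, receptors and partners of LCN2, 15 were tested in each fit. The interleukin-22 receptor subunit IL22RA1 was the only one called. It rose in HNF4G-KO tumors (18.0 ± 4.10 against 10.1 ± 1.99 RPKM in control, SD, n = 4 and 3, log2 fold change 0.77, limma adjusted p = 0.0492), in HNF4G-KO + FOXA1-OE against control (20.5 ± 7.52 RPKM, log2 fold change 0.91, limma adjusted p = 0.0424) and against FOXA1-OE tumors (8.22 ± 0.88 RPKM, log2 fold change 1.17, limma adjusted p = 0.00911). In each of these comparisons it was 1 gene of 15, where 12.2%, 4.7% and 7.86% of all genes were called, in that order. The comparisons share the control or the HNF4G-KO + FOXA1-OE tumors. With the host stroma covariate IL22RA1 was not called in either comparison with control (limma adjusted p = 0.0718 and 0.0749). Against FOXA1-OE tumors it was (limma adjusted p = 0.0104). In repeats that left out a mouse or the tumors that stand apart, the first call was made in 1 of 8, without the tumors that stand apart (limma adjusted p otherwise 0.0575 to 0.203, the highest without control tumor 2), the second in 3 of 8 and the third in all 8. CEBPB, RELA, STAT3 and NFKBIZ, which act on the LCN2 promoter, were expressed in all libraries (30.5 to 95.1, 17.0 to 28.4, 5.89 to 14.9 and 1.84 to 10.3 RPKM) and were not called. The median log2 fold change of the 15 was 0.01 in HNF4G-KO against control, and 0.06 and -0.21 in metastases of HNF4G-KO + FOXA1-OE and HNF4G-KO, beside 0.05 and -0.09 over all genes.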

How the data were processed

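RNA was sequenced from 21 HPAF-II xenograft libraries with a stranded mRNA kit. The authors mapped single-end reads with STAR 2.6.1a, and per the labels featureCounts 2.0.4 counted them; the labels name GRCh38 and the study's methods GRCh37. The authors deposited RPKM values per gene, with depths of 33.1 to 69.6 M reads by the smallest steps (at least 99.7% of low values were whole to 0.01 reads, in steps of 2 most often). Mouse cell line libraries of the series were not used here.

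The deposited RPKM values were tested as log2(RPKM + 1) with limma 3.58.1 in R 4.3.3 (eBayes with trend), keeping genes that averaged 1 RPKM or more in the libraries fitted, and an adjusted p under 0.05 was called. Libraries of 1 kind from 1 mouse were averaged. The p-values measure spread between mice bearing the same cell pools. Single genes also had exact permutation tests, 68 in all, of which none passed Benjamini-Hochberg adjustment (smallest 0.432). Limma-voom on recovered reads was chosen after seeing the data. The labels give the mouse of each metastasis. Deviations of a tumor and a metastasis of 1 mouse correlated at -0.03 to 0.30 across genes in 4 mice, and a random mouse block (correlation 0.342) was an alternative. Functions were tested on simulated data. Named genes are the 10 members, HNF4G and FOXA1, up to 3 called genes per direction and comparison from both lists, and the 5 genes most like LCN2. CEBPB, RELA, STAT3 and NFKBIZ were named after their values were seen. Members and lists were chosen with earlier results of these data known.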

Additional observations from a re-analysis of the deposited data

Results flagged for a closer look

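Each of the 10 genes was examined in the 2 groups with 4 mice, HNF4G-KO and HNF4G-KO + FOXA1-OE tumors, on the log2(RPKM + 1) scale. In 3 of these 20 cases a mouse was far from the others by Dixon's criterion, beside about 1 in 20 by chance for values that are not tied. The LTF case below is tied at 0, so the 3 cannot be set against that rate. LYZ in HNF4G-KO + FOXA1-OE tumor 5 was 142 RPKM, against 467 RPKM or more in the other tumors of that group (gap over range 0.8304 on the log2 scale). PI3 in HNF4G-KO tumor 1 was 2.98 RPKM, against 0.757 to 1.02 RPKM in the other 3 (0.8304). LTF in HNF4G-KO tumor 2 was 0.00801 RPKM, a value of 2 reads, against 0 in the other 3 (ratio 1). With the other 3 at 0 the ratio is 1 whatever that value, so this flag was fixed in advance.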

How the results depend on the processing

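Among the members' log2 fold changes, 469 recomputed values kept their direction and their side of the threshold. Of the others, 12 were classed as reversed, 8 as stronger and 1 as moved. Counts of members called moved from 0 in 4 comparisons. HNF4G-KO against control gave 2 with no RPKM filter and on recovered reads, an alternative chosen after seeing the data (PIGR and DMBT1), 2 with the host stroma covariate and in the fit of the 2 groups alone (LCN2 and WFDC2), 1 without FOXA1-OE tumor 3 and HNF4G-KO + FOXA1-OE tumor 5 (LCN2, also chosen after seeing the data), and 0 to 1 without single mice, where dropping an HNF4G-KO tumor lifted PIGR over the filter. HNF4G-KO + FOXA1-OE gave 1 against HNF4G-KO with the stroma covariate (DEFB1), 1 against control with no RPKM filter and on reads (DMBT1), and 1 against FOXA1-OE with the stroma covariate (DEFB1), on reads (PIGR) and, for 0 to 1 over single mice, without tumors 2 and 3 (DEFB1). The cause was not tested. Signs reversed in HNF4G-KO metastases with the stroma covariate for WFDC2 (0.53) and DEFB1 (0.74). Leaving out 1 mouse, LCN2 in HNF4G-KO against control ranged from -1.41 to -0.71 and WFDC2 from -1.02 to -0.43, SLPI there from -0.22 to 0.13, LCN2 in FOXA1-OE against control from -0.50 to 0.22, and in HNF4G-KO metastases SLPI from -0.23 to 0.48, PI3 from -0.14 to 0.39, WFDC2 from -1.15 to 0.46 and DEFB1 from -1.89 to 1.01. The replicate block on tumor numbers, which correlated at -0.53 to 0.50 over 19 pairs and share only a number, and the mouse block changed no member call, although the mouse block raised all genes called in HNF4G-KO metastases from 6 to 77. Over all settings, genes called in HNF4G-KO against control ranged from 284 to 5595 (1736 as reported).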
